A study of Mus musculus with 19 samples.

Results

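The E14.5-only regions are stretches of the mouse autosomes that carried a called 5-hydroxymethylcytosine (5-hmC) peak in both lists of embryonic cardiomyocytes (CMCs) and in no list of a later point. They were selected on peak position alone. The base pairs shared by both E14.5 peak lists were merged into 56809 common regions on the 19 autosomes, and those that a peak of any of the 6 later lists overlapped by 1 bp or more were removed. This left 3567 regions, 6.28% of the E14.5 common regions. They covered 1.48 Mb of the 32.4 Mb of the common regions. For comparison, the same rule gave 4421 of 65363 common regions at the neonatal point, 5240 of 46528 at the adult point and 2545 of 22841 after TAC.

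The study profiled 5-hmC by hMeDIP-seq, in which sheared DNA is precipitated with an antibody against 5-hmC, sequenced and compared with input DNA. All groups were CMCs of C57BL/6J mice, 2 biological replicates each: embryos at E14.5, neonatal pups of 1 to 2 days, adults of 2 months, and adults 1 week after TAC, or transverse aortic constriction, an operation that loads the heart with pressure. According to the study's methods the animals were male, embryonic and neonatal cells came from ventricles digested with collagenase and were freed of adherent cells in culture dishes, and adult cells came from the perfused left ventricle, so that age and isolation cannot be told apart where E14.5 is compared with adult or TAC cells, while E14.5 and neonatal cells shared a method. The isolates were enriched for CMCs, not pure, and the number of animals behind each replicate was not given in the sources used here.

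5-hmC is made from 5-methylcytosine by the TET dioxygenases, mostly at CpG dinucleotides. It is an intermediate of DNA demethylation and also a lasting mark in cells that divide little, such as neurons and CMCs, where it is found on the bodies of transcribed genes and at distal enhancers. Embryonic CMCs still divide and use fetal sarcomere isoforms, whereas CMCs leave the cell cycle soon after birth and turn to fatty acid oxidation.

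To show what such regions look like, 8 sequences follow, read from the plus strand of GRCm38 (mm10) with each CpG in capitals. The first pair are among the 3 richest in CpG of the 284 E14.5-only regions of 150 to 300 bp outside untranslated regions, and the next 3 lie nearest to the median CpG density of all E14.5-only regions, 1.33 per 100 bp. The region chr7:126396482-126396692 lies on an exon of Nfatc2ip and chr13:58507335-58507502 is intergenic with Slc28a3 as the nearest gene. Of the typical ones, chr4:104556423-104556573 is in an intron of Dab1, and chr2:5136201-5136500 and chr9:83716664-83716815 are intergenic, nearest to Ccdc3 and Elovl4. No such region belonged to the fetal sarcomere or cell cycle lists used below, and of those on or nearest to a cardiac transcription factor gene the richest in CpG was chr11:65506030-65506297, 236175 bp from the transcription start site (TSS) of Myocd, the gene of the SRF coactivator myocardin. The last pair are the central 300 bases of the only regions within 1 kb of a TSS of a gene on the lists used below: chr5:51568547-51568846 before the start of Ppargc1a, the gene of the mitochondrial coactivator PGC-1α, and chr15:77022179-77022478 in an intron of Mb, the gene of myoglobin. The CpG-rich sequence on Nfatc2ip holds 24 CpG in 211 bp, and the one in Dab1 holds 2 in 151 bp.
Nfatc2ip exon: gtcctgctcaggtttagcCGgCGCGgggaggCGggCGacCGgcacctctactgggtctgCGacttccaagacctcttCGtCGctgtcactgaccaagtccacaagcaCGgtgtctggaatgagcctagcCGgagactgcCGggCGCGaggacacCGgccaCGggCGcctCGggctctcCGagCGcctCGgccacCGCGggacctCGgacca
Slc28a3 intergenic: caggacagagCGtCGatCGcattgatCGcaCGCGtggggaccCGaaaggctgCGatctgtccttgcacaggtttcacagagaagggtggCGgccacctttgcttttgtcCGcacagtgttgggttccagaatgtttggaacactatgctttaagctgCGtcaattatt
Dab1 intron: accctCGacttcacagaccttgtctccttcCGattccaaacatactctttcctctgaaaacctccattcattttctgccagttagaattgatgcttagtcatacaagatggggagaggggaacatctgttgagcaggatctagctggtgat
Ccdc3 intergenic: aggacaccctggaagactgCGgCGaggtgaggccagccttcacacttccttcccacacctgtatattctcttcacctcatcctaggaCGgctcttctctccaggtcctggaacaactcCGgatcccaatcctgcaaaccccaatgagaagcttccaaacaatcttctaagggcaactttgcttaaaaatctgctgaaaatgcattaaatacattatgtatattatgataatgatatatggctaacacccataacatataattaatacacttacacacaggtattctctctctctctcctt
Elovl4 intergenic: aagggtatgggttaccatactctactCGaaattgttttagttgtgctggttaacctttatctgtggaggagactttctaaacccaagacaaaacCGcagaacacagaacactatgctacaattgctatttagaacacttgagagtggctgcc
Myocd intergenic: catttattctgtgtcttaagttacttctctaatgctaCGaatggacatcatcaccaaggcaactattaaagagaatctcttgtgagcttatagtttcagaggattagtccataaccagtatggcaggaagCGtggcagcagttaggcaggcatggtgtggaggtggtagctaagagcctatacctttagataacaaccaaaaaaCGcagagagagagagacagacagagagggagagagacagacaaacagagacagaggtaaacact
Ppargc1a TSS: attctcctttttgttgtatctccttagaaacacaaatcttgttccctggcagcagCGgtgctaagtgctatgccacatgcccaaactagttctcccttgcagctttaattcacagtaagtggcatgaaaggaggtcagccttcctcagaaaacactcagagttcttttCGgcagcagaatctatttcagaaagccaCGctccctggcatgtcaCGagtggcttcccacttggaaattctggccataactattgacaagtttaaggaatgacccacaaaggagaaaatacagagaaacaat
Mb intron: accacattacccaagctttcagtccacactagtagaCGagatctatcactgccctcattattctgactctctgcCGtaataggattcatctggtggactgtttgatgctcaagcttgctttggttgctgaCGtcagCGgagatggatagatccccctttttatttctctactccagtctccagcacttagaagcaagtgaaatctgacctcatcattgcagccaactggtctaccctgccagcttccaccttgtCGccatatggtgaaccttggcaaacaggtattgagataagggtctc

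The lists held between 104215 and 153637 peaks, and each of the 8 autosomal lists covered 64.9 to 117 Mb. The number of reads was not in the lists, so the depth behind a call cannot be read from them, and a list from a deeper library can remove more regions. TAC replicate 2 stood apart. At the centres of those E14.5 common regions that a later list overlapped, 38.2% had a peak of TAC replicate 1 but 7.49% one of TAC replicate 2, and the coverage of the latter was higher beside these regions, 16.7% at 700 bp. Around the E14.5-only regions its peaks also lay beside the region, with 5.92% at 700 bp against 3.64% at 2 to 10 kb. Without TAC replicate 2 there were 3828 E14.5-only regions, and 2949 if its peaks within 1 kb also removed a region, an alternative chosen after seeing the data. The intergenic share was 52.1% with TAC replicate 2 as deposited, 51.8% without it and 52.9% under the alternative.

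Each later list was asked how many E14.5 common regions it overlapped. Neonatal replicate 1 overlapped 60.7% of them and neonatal replicate 2 overlapped 77.3%. Adult replicates 1 and 2 overlapped 39.1% and 45.0%. TAC replicates 1 and 2 overlapped 41.0% and 22.2%. A neonatal peak of at least one replicate lay on 49763 common regions, 87.6%, more than an adult peak (60.6%) or a TAC peak (50.5%). Of the regions that 1 point alone overlapped, 11932 were neonatal, 1467 adult and 890 TAC. A single list was decisive for many: without neonatal replicate 2 the E14.5-only set would hold 8580 regions and without neonatal replicate 1 it would hold 5484, whereas leaving out any other later list gave 3828 to 4243. Taking 1 E14.5 list alone in place of the common regions gave 26251 regions for replicate 1 and 23162 for replicate 2.

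Most E14.5-only regions had a later peak close by. The bases to the nearest peak of any later list had a median of 1.21 kb, and 1614 regions, 45.2%, had one within 1 kb. Within 10 kb 3335 regions had one, and within 50 kb 3561 of the 3567 did. By list, the median distance was 4.74 and 3.93 kb to the neonatal replicates, 8.46 and 6.18 kb to the adult replicates and 7.90 and 5.37 kb to the TAC replicates. Just inside the limit of the rule, 179 regions had a later peak at 50 bp or less, with a median width of 420 bp, an intergenic share of 45.2% and 1.45 CpG per 100 bp. Just outside it, later peaks covered 1 to 50 bp of 524 common regions, which had a median width of 37 bp, an intergenic share of 36.6% and 1.42 CpG per 100 bp. A region of 50 bp or less enters this set even where a later peak covers it whole, so its small width follows from the definition.

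The wider neighbourhood of the E14.5-only regions was sparser in peaks than that of the other common regions, at each point. At 2 to 10 kb from the centre of an E14.5-only region, 5.76% and 6.43% of positions were covered by the 2 E14.5 lists, 5.72% and 7.09% by the neonatal, 3.94% and 5.34% by the adult, and 3.98% and 3.64% by the TAC lists. Set against each list's coverage of the autosomes these were ratios of 1.56 and 1.64 at E14.5, 1.43 and 1.45 at the neonatal point, 1.24 and 1.32 in adults and 1.28 and 1.34 after TAC. E14.5 had the highest ratios here, around regions that the rule chose for peaks at E14.5 and none later. Around the common regions that a later list overlapped the ratios were 2.11 to 2.83, above 1.64 in each of the 8 lists. There the order differed, with 2.48 and 2.28 at E14.5, 2.565 and 2.58 neonatal, 2.82 and 2.83 in adults and 2.75 and 2.11 after TAC. No test was made of these ratios, since the rule used the same lists.

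**Figure D1:**
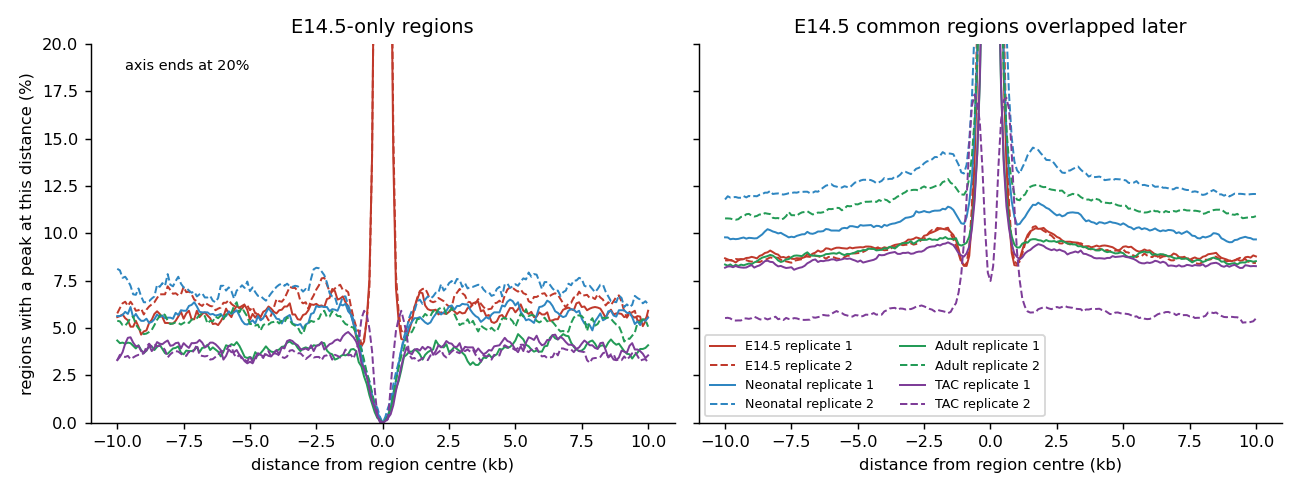
Share of regions (%, cut at 20%) with a peak of each list at a given distance from the region centre (kb), for the 3567 E14.5-only regions (left) and the other E14.5 common regions (right); colours are points, solid lines replicate 1 and dashed lines replicate 2. Mean coverage at 2 to 10 kb lies between 3.64% and 7.09% on the left, and TAC replicate 2 peaks beside the centre on the right.

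The E14.5-only regions were short. Their median width was 453 bp, with quartiles of 374 and 494 bp and a range of 1 to 1926 bp, against a median of 501 bp and a maximum of 7507 bp over all common regions. Only 11 of them, 0.308%, were wider than 1 kb, whereas 6.77% of all common regions were. At the short end 182 regions, 5.10%, were narrower than 100 bp. HOMER's narrowest region in these lists is 501 bp apart from 5 of 989991 autosomal peaks, and 1980 E14.5-only regions, 55.5%, came from a peak of exactly 501 bp in both replicates. Over all common regions this was 25.1%.

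The order of the deposited lists, whose sorting key the files do not name, separated the E14.5-only regions from the rest. Mean peak width fell from 1088 and 1081 bp in the first 25% of the 2 E14.5 lists to 504 and 504.5 bp in the last 25%. The peaks behind E14.5-only regions had a median place at 61.0% of the E14.5 replicate 1 list and 59.9% of the replicate 2 list, against 32.1% and 31.1% over all common regions. When common regions were ordered by their mean place in both lists, 0.211% of the first 10% were E14.5-only and 19.9% of the last 10%. A place in the first 25% of both lists was held by 99 E14.5-only regions, 2.77%, and by 25.7% of all common regions.

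**Figure D2:**
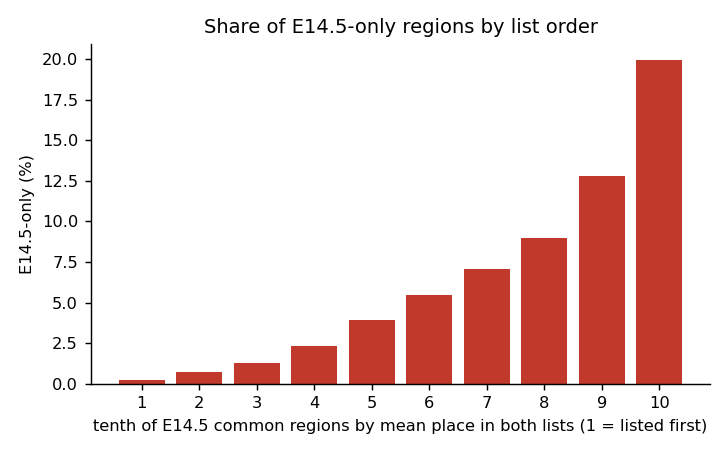
Share of E14.5 common regions that were E14.5-only (%), by their mean place in the 2 E14.5 lists in steps of 10%, first listed on the left. The share was 0.211% in the first step and 19.9% in the last.

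By place, the E14.5-only regions were intergenic or intronic for the most part. Of the 3567 regions 1857 were intergenic by their centre, 52.1% (46.0% with GENCODE in place of RefSeq genes), and 1490 were intronic, 41.8%. Exons held 103 regions, 2.89%, TSSs 43 regions, 1.21%, transcription termination sites 39, 3′ UTRs 28 and 5′ UTRs 7. Over all E14.5 common regions 41.6% were intergenic, 50.6% intronic and 1.83% at a TSS. On the autosomes as a whole 56.9% of bases were intergenic, 38.2% intronic and 1.25% at a TSS. The median distance of an E14.5-only region to the nearest TSS of a protein-coding gene was 52.9 kb, and 37.7 kb over all common regions. More than 100 kb lay between a TSS and 34.2% of E14.5-only regions, against 25.2% of all common regions.

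The intergenic share followed the number of later lists that overlapped a region. It was 52.1% with no later list, 50.3% with 1, 47.5% with 2, 41.5% with 3, 35.4% with 4, 29.5% with 5 and 28.0% with all 6. The E14.5-only regions thus lay at the end of a gradient, next to the regions that 1 later list overlapped. The later lists themselves differed in place. Of all their autosomal peaks 40.9% and 42.0% were intergenic at the neonatal point, 30.8% and 31.6% in adults and 32.0% and 42.5% after TAC. The part of these differences in the gradient was not tested. Width followed the same order, from a median of 453 bp with no later list to 799 bp with 6. Among regions of 400 to 501 bp alone, a range set after the widths were seen, the intergenic share was still 53.4% with no later list, 52.9% with 1 and 28.9% with 6.

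CpG density did not follow that order. The E14.5-only regions held 1.46 CpG per 100 bp, more than the regions with 1 or 2 later lists, 1.34 and 1.39, and fewer than those with 4, 5 or 6, 1.61, 1.72 and 1.79. The autosomes as a whole had 0.851 CpG per 100 bp. Soft-masked bases, which mark repeats and low-complexity sequence, made up 25.5% of the E14.5-only regions, 29.9% and 30.7% of the regions with 1 and 2 later lists and 33.5% of the autosomes. No masked base at all was in 592 E14.5-only regions, 16.6%, against 10.4% of all common regions. G and C together made up 47.5% of the bases of E14.5-only regions and 48.7% over all common regions. No CpG was in 297 E14.5-only regions, 8.33%, and at least 5 per 100 bp were in 37 regions, 1.04%.

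**Figure D3:**
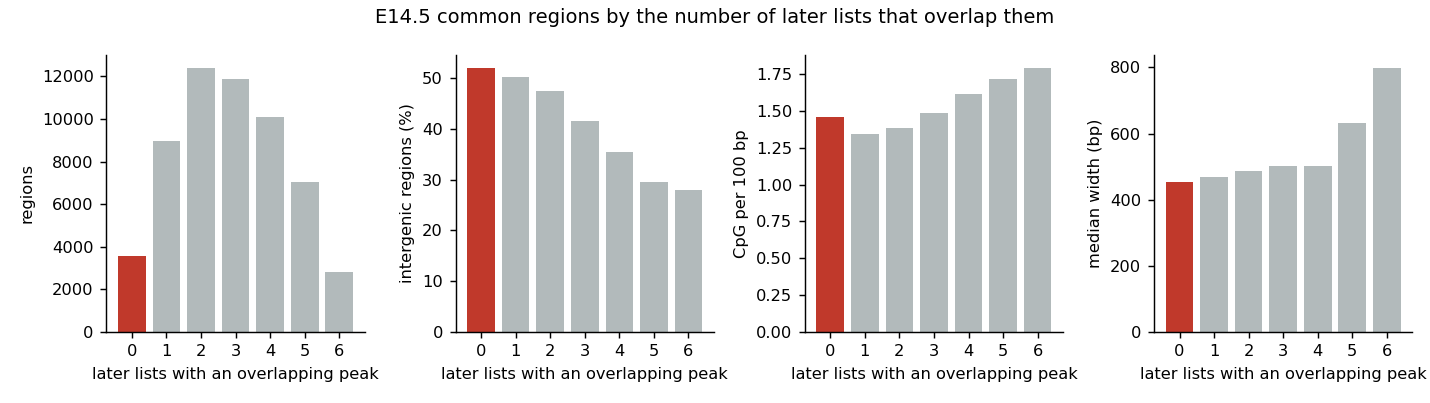
E14.5 common regions by how many of the 6 later lists overlap them: number of regions, intergenic share (%), CpG per 100 bp and median width (bp); E14.5-only regions are the red bars at 0. The intergenic share goes from 52.1% at 0 to 28.0% at 6, while CpG density is 1.46 at 0, 1.34 at 1 and 1.79 at 6.

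The same rule gave different places at the other points. Neonatal-only regions were 42.0% intergenic, adult-only regions 23.6% and TAC-only regions 32.2%, against 52.1% for E14.5-only regions. Their CpG density was 1.22, 1.69 and 1.37 per 100 bp, and their soft-masked share 28.1%, 16.2% and 21.2%. TAC-only regions had a median width of 117 bp. Such sets have no replicates, because each needs both lists of a point.

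To test the difference over samples, the rule was applied to each list alone: a single-point peak is an autosomal peak of 1 list that no list of another point overlaps. The E14.5 lists held 26251 and 23162 of them. Their intergenic share was 54.0% and 56.2% at E14.5, 50.9% and 48.6% at the neonatal point, 32.9% and 32.0% in adults, and 36.3% and 51.7% after TAC. Both E14.5 values lay above the 6 later ones, and the neonatal values came next together with TAC replicate 2. The mean over the embryonic lists was 55.1% ± 1.57 (SD, n = 2) and over the later lists 42.1% ± 9.29 (SD, n = 6), a difference of 13.0 points that was not past the threshold (exact permutation test, two-sided p = 0.143, Benjamini-Hochberg adjusted over 3 measures p = 0.429, smallest p possible 0.0357). The later lists are not replicates of 1 condition, with means of 49.8% neonatal, 32.45% adult and 44.0% TAC. Their SD and the p-value therefore also take in differences among the later points. Over all autosomal peaks of each list the difference was smaller, 7.93 points (exact permutation test, two-sided p = 0.143), with 42.8% and 46.3% intergenic at E14.5, 40.9% and 42.0% at the neonatal point, 30.8% and 31.6% in adults and 32.0% and 42.5% after TAC. Without TAC replicate 2 the difference was 14.95 points (exact permutation test, two-sided p = 0.0952, smallest p possible 0.0476).

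CpG density of single-point peaks was 1.24 and 1.15 per 100 bp at E14.5, 1.07 and 1.06 at the neonatal point, 1.39 and 1.49 in adults, and 1.36 and 0.844 after TAC. The E14.5 values fell inside the later range, with means of 1.20 ± 0.0653 (SD, n = 2) for the embryonic and 1.20 ± 0.249 (SD, n = 6) for the later lists (exact permutation test, p = 1.0, adjusted p = 1.0). Soft-masked bases made up 24.9% and 33.0% at E14.5, 28.5% and 33.7% at the neonatal point, 20.6% and 19.02% in adults, and 20.9% and 30.7% after TAC. Here too E14.5 and later values overlapped, with means of 28.9% ± 5.71 (SD, n = 2) for the embryonic and 25.5% ± 6.17 (SD, n = 6) for the later lists (exact permutation test, p = 0.536, adjusted p = 0.804). The replicates of E14.5 differed by more than the means. TAC replicate 2 had 42.9% of its autosomal peaks as single-point peaks, against 15.3% to 21.4% in the other 7 lists.

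**Figure D4:**
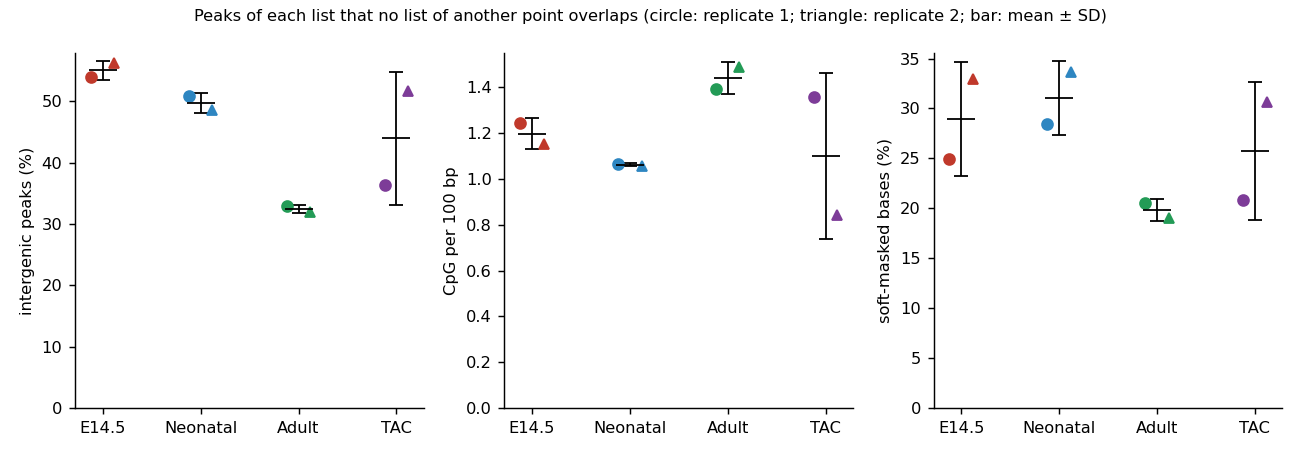
Intergenic share (%), CpG per 100 bp and soft-masked share (%) of the single-point peaks of each of the 8 lists by point; symbols are the replicates, the horizontal bar is their mean and the whiskers the SD (n = 2). E14.5 lies above the later lists in intergenic share, with 54.0% and 56.2%, and among them in the other 2 measures.

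E14.5-only regions were spread over the autosomes. Their share of the common regions ran from 4.94% on chromosome 17 to 7.61% on chromosome 9. The median gap between neighbours was 357 kb, and 59 of 3548 gaps, 1.66%, were 5 kb or less. Windows of 1 Mb mostly held none (833 windows) or 1 (669 windows). The fullest, chosen after the counts were seen, held 11 of 67 common regions at chr2:169000001-170000000, around the genes Zfp64, Tshz2 and Zfp217. Of the intergenic regions 7 had Zfp64, a zinc finger gene, as the nearest gene, and 6 had Cadm1, the gene of a cell adhesion molecule of the immunoglobulin family.

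On gene bodies 1218 of 20021 protein-coding genes held an E14.5-only region, 6.08%, and these were 14.3% of the 8495 genes with any E14.5 common region. Of these genes 983 held 1 region, 170 held 2 and 65 held 3 or more. In 214 of them each common region was E14.5-only. Genes with an E14.5-only region were long, with a median of 114 kb against 41.1 kb for genes with any common region and 16.9 kb for all. Within 1 kb of a TSS, 84 genes had one, 0.42% of the protein-coding genes.

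The gene with the most was Esrrg, the gene of the estrogen-related receptor γ, a nuclear receptor of oxidative metabolism in the heart, with 7 of 48 common regions, all in introns of a gene of 606 kb (chr1:187609006-188214885). Its body held 85 and 98 peaks at E14.5, 90 and 107 at the neonatal point, 83 and 112 in adults and 100 and 72 after TAC. The groups overlapped on Esrrg. A later peak lay between 18 and 1660 bp from each of its 7 regions, such as chr1:187767064-187767515, 18 bp from one, and chr1:187999966-188000466, 1660 bp from one.

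Sdk1, which encodes a synaptic adhesion protein, and Fstl4, a follistatin-like gene, held 6 each, of 44 and of 19 common regions. The peaks on Sdk1 numbered 87 and 97 at E14.5, 69 and 89 at the neonatal point, 44 and 47 in adults and 41 and 43 after TAC. Sdk1 and the other genes here were named for E14.5-only regions. By the rule these have peaks in both E14.5 lists and in no later list. The lists also differed in size, with 130532 and 137275 autosomal peaks at E14.5 and 134863 and 151247 at the neonatal point. Adult lists held 103752 and 120808 and TAC lists 104477 and 107037. The share of all genes with fewer peaks in later lists was not counted, so such an order is not read as particular to the named genes. On Fstl4 there were 43 and 38 peaks at E14.5, 38 and 39 neonatal, 34 and 37 adult and 27 and 21 TAC peaks. The same naming rule gave, with 5 regions each, Camta1, a calmodulin-binding transcription activator, Zfp423, a zinc finger factor of the BMP pathway, Ntm, a neuronal adhesion gene, Thsd4, Rbms3, an RNA-binding protein, Grip1, a glutamate receptor scaffold, and Ttll5, a tubulin polyglutamylase.

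Zfp423 and Grip1 held fewer peaks in adult and TAC lists than at E14.5, under the same limits of selection and list size. Zfp423 held 37 and 39 peaks at E14.5, 25 and 37 at the neonatal point, 14 and 22 in adults and 12 and 16 after TAC. Grip1 held 60 and 72 at E14.5, 42 and 48 neonatal, 20 and 28 adult and 24 and 32 TAC peaks. On Camta1 the order differed, with 100 and 112 peaks at E14.5 and 96 and 140 in adults. Ntm had a region at a TSS, chr9:29962998-29963450, whose nearest later peak was 5484 bp away.

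Per 100 kb of gene body, among genes with 3 or more, the most were on Pemt (3.95, with 3 of 5 common regions), the gene of the enzyme that makes phosphatidylcholine from phosphatidylethanolamine. Tiam1, a Rac activator, had 2.67 (5 of 15), Mtcl1, a microtubule crosslinking factor, 2.66 (3 of 10), Hunk, a kinase gene, 2.65 (3 of 17), and Arhgap28 2.48 (4 of 11). Tiam1 held 37 and 29 peaks at E14.5, 25 and 26 neonatal, 13 and 20 adult and 16 and 14 TAC peaks. Pemt held 11 and 10 at E14.5 and 2 to 8 later. Both genes were named for E14.5-only regions, so the limits of selection and list size given above apply to these counts. The order is not read as particular to them.

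The widest E14.5-only regions were few. The widest, chr6:122392495-122394420 with 1926 bp and 47 CpG, lay at a termination site, 53231 bp from the nearest TSS of a protein-coding gene, that of Phc1, a Polycomb component. The next, chr7:100968508-100970118 with 1611 bp, was intergenic near P2ry6, a nucleotide receptor gene. Then came 1357 bp on Txnip (chr3:96559795-96561151), the gene of the thioredoxin-interacting protein that restrains glucose uptake, and 1335 bp in an intron of Nedd4l (chr18:65083543-65084877), a ubiquitin ligase of ion channels. The fifth was 1146 bp in an intron of Actn2, the sarcomeric α-actinin of the Z-disc (chr13:12333889-12335034). It was the whole of a peak of 1146 bp in replicate 1 and lay within a peak of 5403 bp in replicate 2, and the nearest later peak was 461 bp away. Actn2 as a whole held 15 and 11 peaks at E14.5, 25 and 20 at the neonatal point, 13 and 20 in adults and 10 and 11 after TAC, so the groups overlapped.

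The regions richest in CpG lay at gene starts. Among regions of 200 bp or more the first was chr14:31830290-31830764, 112 bp from a TSS of Ankrd28, with 67 CpG in 475 bp, 14.1 per 100 bp. Then came the Nfatc2ip exon shown above with 11.4 per 100 bp, Prr5l with 7.58 in a 5′ UTR, Otud7b with 7.52 and Ncoa4 with 7.25 in introns. All 5 were within 388 bp of a TSS of a protein-coding gene. Nfatc2ip encodes an NFAT-interacting protein and Ncoa4 the receptor for the autophagy of ferritin. The Ncoa4 region lay 3 bp from a later peak, while those on Ankrd28, Nfatc2ip, Prr5l and Otud7b lay 1231 to 3121 bp from one.

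Genes of the lists were counted on the gene body, with the share over all protein-coding genes beside them, 6.08% with an E14.5-only region and 42.4% with any E14.5 common region. Of 30 cardiac transcription factor genes 4 held one, 13.3%, and 22 held any common region. By regions the share was below that of all genes, 6 of 204 common regions, 2.94%, against 5.01%. These were Foxp1 with 3 of 53 regions, and Hey1, Tead1 and Myocd with 1 each, a forkhead repressor, a Notch effector, the DNA-binding partner of YAP and the SRF coactivator. The Hey1 region (chr3:8663618-8664082, in the 3′ UTR) was the only common region of this gene, which had 1 peak in each E14.5 list, 1 in adult replicate 1 and 0 in the other 5. No gene of this list had one within 1 kb of a TSS. A further 18 intergenic regions had a gene of this list as the nearest, of 227 intergenic common regions, 7.93%, close to 7.86% for all genes. Gata6, Irx3, Meis1, Tbx3, Tbx5 and Tbx20, which pattern the heart, were nearest to 2 each.

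Fetal sarcomere genes held one in 4 of 25, 16.0%, with 5 of 96 common regions, 5.21% against 5.01% on all genes. On Tnnt2, the gene of cardiac troponin T, 1 of 4 common regions was E14.5-only, chr1:135839925-135840469, 3208 bp from a TSS in an intron and 1079 bp from a later peak. Its body held 5 and 5 peaks at E14.5, 4 and 3 neonatal, 2 and 3 adult and 2 and 1 TAC peaks. By the rule the E14.5-only region has a peak in both E14.5 lists and in no later list, so the selection enters these counts. On Tnni1, the slow skeletal troponin I that the fetal heart uses, 1 of 2 was E14.5-only, chr1:135802796-135803379, but the gene had 3 and 2 peaks at E14.5 and 5 and 3 in adults. Nebl, the gene of the Z-disc protein nebulette, held 2 and Actn2 the one described above. No region was on the body of Myh6 or Myh7, the cardiac myosin heavy chains, on which both E14.5 lists had peaks.

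Calcium and ion channel genes held one in 6 of 25, 24.0%. Among them were Cacna1c and Cacna1d, L-type calcium channel subunits with 2 each, of 58 and 17 common regions, and Cacna2d1, Casq2 and Kcnd2 with 1 each. They were 8 of 222 common regions, 3.60%. Per Mb of gene body the list had 1.66 regions against 1.65 for all genes. Neural genes, taken as a list from outside the heart, held one in 7 of 20, 35.0%, with 8 of 135 common regions, 5.93%, but per Mb 0.783, with a median length of 308 kb against 16.9 kb for all genes.

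TGF-β, BMP and Notch genes held one in 6 of 31, 19.4%, with Bmp6 and Bmpr1b at 2 of 7 common regions each and Bmp7, Notch2, Tgfb2 and Tgfbr3 at 1, together 8 of 171 common regions, 4.68%. Bmp6, a BMP ligand of the heart's cushions and endothelium, had chr13:38353683-38354183 with 17 CpG, 3200 bp from a later peak. Its body held 20 and 13 peaks at E14.5, 13 and 12 neonatal, 8 and 6 adult and 8 and 14 TAC peaks. Neonatal replicate 1 and TAC replicate 2 thus reached the E14.5 range. Wnt genes held one in 1 of 35, 2.86%, and 1 of 186 common regions, 0.538%, although 28 genes had a common region. It was on Lef1, the nuclear partner of β-catenin. Lef1 had 16 and 16 peaks at E14.5, 8 and 12 neonatal, 6 and 6 adult and 7 and 3 TAC peaks. The selection enters the counts on Bmp6 and Lef1, and the lists differ in size. The share of all genes with such an order was not counted. Outside gene bodies 19 of 187 intergenic common regions nearest to a Wnt gene were E14.5-only, 10.2%, among them 5 of 9 nearest to Dkk2, a Wnt antagonist.

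Of 32 cell cycle genes none held an E14.5-only region on the body, while 13 held a common region, 40.6%. Ccnd1, Ccnd2, Ect2, Mki67, Myc and Mycn, which act in cell division, were each the nearest gene of 1 intergenic region, 6 of 93 in all, 6.45%. Adult metabolism genes held one in 2 of 30, 6.67%, Esrrg and Mb, with 8 of 109 common regions, 7.34%, of which Esrrg had 7. The region on Mb, 398 bp from a TSS, covered 501 bp with 9 CpG and lay 922 bp from a later peak, and Mb held 9 and 6 peaks at E14.5 and 5 to 7 later. The region before Ppargc1a lay 972 bp from its TSS and 95 bp from a later peak, and the gene body held 15 and 7 peaks at E14.5 and 3 to 19 later. Of 11 TET and DNMT genes, the enzymes of 5-hmC and of DNA methylation, Tet1 held 1 of 6 common regions (chr10:62843394-62843849, in an intron), with 7 and 7 peaks at E14.5 and 8 to 11 later.

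**Figure D5:**
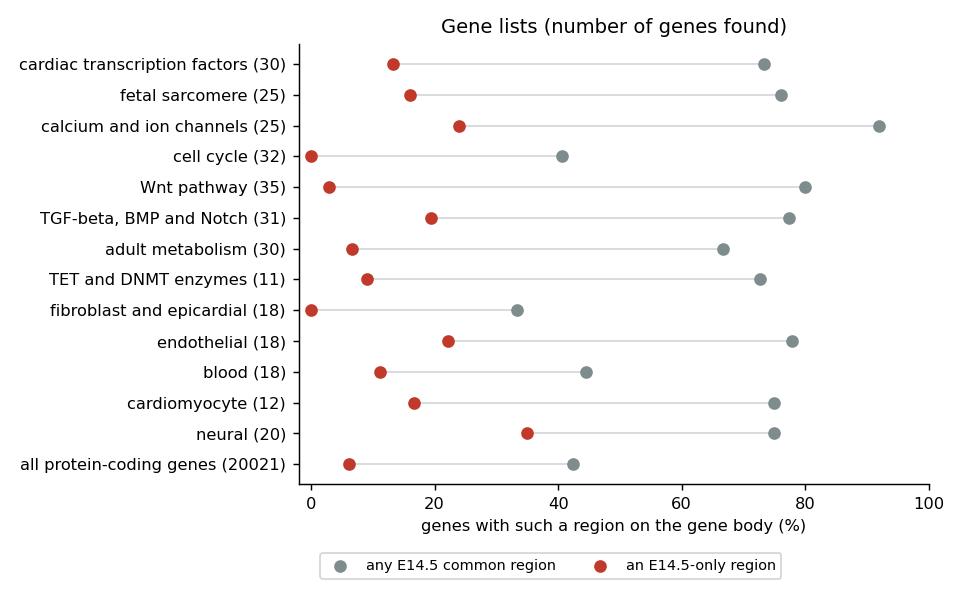
Share of genes (%) of each list with an E14.5-only region on the gene body (red) and with any E14.5 common region (grey), with the number of genes in brackets and all protein-coding genes at the bottom. The red share is 6.08% over all genes, 0 for cell cycle and fibroblast genes and 35.0% for the long neural genes.

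The label of the cells was set against markers of other cell types. Of 12 CMC genes 10 and 9 had a peak on the body in the 2 E14.5 lists, and 8 to 10 in the later ones, with Pln at 0 in all 8 and Nkx2-5 at 0 in both E14.5 lists. Myh6 held 8 and 8 peaks at E14.5, 7 and 8 neonatal, 1 and 2 in adults and 3 and 3 after TAC. Myh7 held 8 and 7 at E14.5, 8 and 6 neonatal, 1 and 4 in adults and 5 and 3 after TAC. The summed peaks per Mb of the CMC genes were 140 and 110.8 at E14.5 and 231 and 211 at the neonatal point. In adults they were 155.6 and 185.7, and after TAC 162 and 110.8, so E14.5 was at the low end of this sum. Ryr2 and Ttn held the most peaks in it. Ryr2 held 49 and 43 at E14.5 and 57 to 109 later, and Ttn 50 and 27 at E14.5 and 32 to 73 later. The order of the sum did not hold for each member, as Myh6 and Myh7 show. Fibroblast and epicardial genes had a peak in 11 and 11 of 18 at E14.5 and 6 to 12 later, with 0 in both E14.5 lists for Col1a2, Col3a1, Lum, Tcf21, Twist1 and Vim. Fn1 held 7 and 6 peaks at E14.5, 3 and 7 at the neonatal point and 0 to 2 in adult and TAC lists, and Col1a1 held 4 and 4 at E14.5 and 0 to 3 later. Wt1 went the other way in most lists, with 1 and 0 at E14.5 and 0 to 5 later. Ddr2 held 7 and 5 at E14.5 and 3 to 7 later, and Pdgfrb 6 and 4 at E14.5 and 3 to 6 later, so both overlapped. The summed peaks per Mb of the fibroblast and epicardial genes were 53.2 and 48.4 at E14.5, 45.2 and 62.9 at the neonatal point, 25.8 and 35.5 in adults and 33.9 and 33.9 after TAC. Endothelial genes had one in 15 and 16 of 18 at E14.5 and 13 to 15 later, with Aplnr and Sox18 at 0 in all 8. Their summed peaks per Mb were 134 and 131 at E14.5, 118 and 137 at the neonatal point, 87.0 and 99.1 in adults and 70.6 and 82.7 after TAC. For blood genes the range was 81.2 and 93.4 at E14.5 and 47.3 to 78.8 later, with all 5 globin genes at 0 in all lists. Ank1, with 25 and 26 peaks at E14.5, and Runx1, with 25 and 31, held the most. Both hold E14.5-only regions, so the selection enters this sum. Spi1 held 5 and 5 at E14.5 and 5 to 9 later, Csf1r 2 and 2 and 0 to 5 later, and Tal1 0 and 0 and 1 to 2 later. Peaks per Mb over all genes were not set beside these sums, and the lists differ in size. A peak is a measure of 5-hmC, not of expression.

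E14.5-only regions lay on 4 of 18 endothelial genes, 22.2%: Erg, Ets1, Flt1 and Pecam1, 1 each, each in an intron. These were 4 of 99 common regions on the list, 4.04% against 5.01% for all genes, and the median length of its genes was 64.3 kb. A further 10 of 67 intergenic common regions nearest to an endothelial gene were E14.5-only, 14.9% against 7.86%, of which Cdh5 had 4 of 18 and Emcn 3 of 4. Blood genes held them in 2 of 18, Runx1 and Ank1, with Runx1, a regulator of blood stem cells, at 2 of 12, together 3 of 35 common regions, 8.57%. No fibroblast gene of 18 held one on the body, and 6 of 61 intergenic common regions nearest to that list were E14.5-only. The part of other cell types in the E14.5-only regions was not tested.

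Short motifs of cardiac transcription factors were counted in windows of 500 bp at the centre of each region, on both strands, beside all 56809 E14.5 common regions. GATAAG, the GATA motif, was in 648 windows of E14.5-only regions, 18.2%, against 15.9% of all common regions. CATTCC, the TEAD motif, was in 31.4% against 28.6%, and TNAAGTG, bound by NKX2-5, in 23.2% against 21.4%. AGGTGT, a T-box motif, was in 25.3% against 25.7%, and the E-box CANNTG in 92.4% against 90.0%. The MEF2 consensus was in 5.89% against 4.71% and the CArG box of SRF in 2.35% against 1.90%. CANNTG is short enough to be in most windows, and it may overlap the other motifs. A match is a description of the letters. Among the sequences shown above, the Mb intron holds GATA and E-box letters and the Ppargc1a TSS region TEAD and E-box letters. Such letters were also in the Nfatc2ip (TEAD), Dab1 (E-box), Ccdc3 (T-box and E-box) and Elovl4 (NKX2-5 and E-box) sequences. The Slc28a3 and Myocd sequences hold none of these motifs.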

How the data were processed

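Immunoprecipitated DNA and input were sequenced by the authors, aligned with BWA 0.7.4-r385 to mm10, cleared of duplicates with Picard and filtered at a mapping quality of 10 or more. Regions enriched over input were called per replicate with HOMER 4.5 in histone mode. The deposited lists hold peak positions and a score column that is 1 for each peak, so the score carries no peak height. Per the file headers HOMER scaled the control in both E14.5 lists, neonatal replicate 1 and adult replicate 1, and the IP in the other 4. No input or knockdown library was analysed here, and the lists hold no read depth.

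Lists were intersected by base pair with Python 3.11.15 and numpy 2.4.6, checked against bedtools 2.31.1 and tested on simulated data. Bases, soft-masking and genes came from the RefSeq annotation (release 108) of GRCm38.p6, which is mm10, with 43783 curated transcripts and 20021 protein-coding genes on the 19 autosomes. A region was classed by its centre: TSS from 1 kb before to 100 bp after a start, TTS from 100 bp before to 1 kb after an end, then exon, UTR, intron or intergenic. Gene bodies span the curated transcripts.

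The selection of E14.5-only regions used the peak positions, so their features are described with no test. Single-point peaks of the 2 E14.5 and the 6 later samples were compared with an exact two-sided permutation test over samples. It was computed with numpy 2.4.6 and adjusted over 3 measures. The labels number 2 replicates per point and the methods call them biological, but neither names the animals, so p-values measure the spread between these samples. Among the 6 later samples that spread includes differences between points. Alternatives were a 1 kb gap, either E14.5 list, a minimum width of 200 bp, equal numbers of peaks, all autosomal peaks of each list in place of single-point peaks, classing by base pair, GENCODE M21 genes, leaving out each sample, a replicate block and the 4 points against each other. The last was one-sided for a larger spread between points. P-values of the alternatives were not adjusted.

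Named were the 10 genes with the most regions on the body, the 5 with the most per 100 kb among those with at least 3, list genes with a region within 1 kb of a TSS, the 3 list genes with the most, the 5 widest and the 5 regions of at least 200 bp richest in CpG, and sequences of 150 to 300 bp as described, with chromosome 18 left out. One sequence and one list gene that these rules or counts cover are not reported here. Other list genes that a count covers, the nearest genes of intergenic regions and the 1 Mb window were chosen after their values were seen. The regions and gene lists were chosen with earlier results of these data known. Of the blood list 18 of 19 genes matched the annotation, and all genes of the other lists did.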

Additional observations from a re-analysis of the deposited data

How the results depend on the processing

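The number of E14.5-only regions depended on the rule. If a later peak within 1 kb removed a region, 1953 were left, with an intergenic share of 58.8%, 1.35 CpG per 100 bp and 627 genes. With peaks of either E14.5 list as the source there were 45905, with 55.2%, 1.19 CpG per 100 bp and 6745 genes. With all lists reduced to equal numbers of peaks CpG density was 1.38 per 100 bp, and with GENCODE genes the intergenic share was 46.0%. Leaving out each sample gave 3828 to 26251 regions, an intergenic share of 49.7% to 56.2%, 1.15 to 1.49 CpG per 100 bp, a soft-masked share of 24.8% to 33.0% and 1296 to 5165 genes. A minimum width of 200 bp gave 3227 regions and 1116 genes, leaving out both TAC lists 4457 and 1489, and a TAC replicate 2 peak within 1 kb, chosen after seeing the data, 2949 and 1013. Under these and with classing by base pair the intergenic share was between 51.3% and 52.9%. The cause was not tested.

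For the single-point peaks, leaving out each sample gave differences of 10.8 to 14.95 points in intergenic share, -0.0792 to 0.0499 CpG per 100 bp and -1.64 to 7.49 points in soft-masked share. CpG density turned to higher at E14.5 without E14.5 replicate 2 (0.0499), adult replicate 1 (0.0272), adult replicate 2 (0.0445) or TAC replicate 1 (0.015), and the soft-masked share to lower at E14.5 without E14.5 replicate 2 (-1.64). With the 4 points against each other, the intergenic share (13.04 points between E14.5 and later) had p = 0.0476 (exact permutation test, one-sided for a larger spread between points). This p-value was not adjusted over the 3 measures and concerns differences among all points, not E14.5 alone. CpG density and soft-masked share gave p = 0.362 and 0.238 in the same exact permutation test. Over all autosomal peaks of each list the difference in intergenic share was 7.93 points. With a replicate block the differences were 13.04 points, -0.002919 CpG per 100 bp and 3.404 points (exact permutation test, p = 0.188, 1.0 and 0.562), which cannot go below 0.0625. Deviations of same-numbered samples over 1 Mb bins correlated between -0.104 and 0.403, above 0.1 in 4 of 6 pairs of points and not in the others, and no label ties the numbers to a shared batch, so the block was not taken as the design. The lists hold no depth or peak height, and 2 samples per point limit each test.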
